A study of Mus musculus with 6 samples.

Results

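The 34 genes of the integrated stress response and the unfolded protein response described here were chosen by name, and Ensembl identifiers were matched to these symbols in GENCODE M21 (GRCm38). All 34 were found among the 49315 genes of the deposited count table. They comprise 4 kinases of the translation factor eIF2 alpha, 18 factors and targets of the integrated stress response, and 12 genes of the endoplasmic reticulum. The counts came from bulk RNA sequencing of 6 hearts of C57BL/6 mice, 3 wild-type and 3 conditional knock-in for Txnip C247S, a substitution of a cysteine of the thioredoxin-interacting protein. MerCreMer, a tamoxifen-activated Cre recombinase, and 4-hydroxytamoxifen stand in the labels of both genotypes, and whether wild-type mice had the transgene as well is unclear from them. Age, sex, litter and the promoter that drives the recombinase are not stated. The series' design text counts 3 hearts of each genotype and says nothing of litter or processing day.

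The integrated stress response begins when one of its kinases phosphorylates eIF2 alpha, which slows translation in general while translation of the factor ATF4 goes up. ATF4 then raises genes for amino acid synthesis, one-carbon metabolism and stress signalling, and in heart muscle a mitochondrial defect is a well-known trigger. The unfolded protein response starts in the endoplasmic reticulum, where the sensors PERK (the product of Eif2ak3), IRE1 and ATF6 respond to misfolded protein and raise chaperones. Txnip mRNA is itself known to be raised through PERK and IRE1 in other cell types.

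A pair of short promoter elements belongs to part of this programme, and their matches among the members are shown. The endoplasmic reticulum stress element, CCAAT and CCACG with a spacer of fixed length between them, is known to be read by ATF6 with NF-Y, and the C/EBP-ATF response element, TGATGNAAN, by ATF4. Both were searched on both strands in the 250 bases before each RefSeq start site (GRCm38.p6), a window that was held for 33 of the 34 genes; Manf was not matched. The first element was found in 5 of 11 reticulum genes with a window and in 0.13% of all 27025 genes with a window (0.113% of all 32851 windows). Each stretch reads 5′ to 3′ on the gene's strand, with the fixed bases of the element in capitals.
Hspa5 (chr2:34772020-34772048, + strand): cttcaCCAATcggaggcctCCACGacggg
Hsp90b1, outer match (chr10:86705633-86705661, − strand): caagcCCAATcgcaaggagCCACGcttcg
Hsp90b1, inner match (chr10:86705528-86705556, − strand): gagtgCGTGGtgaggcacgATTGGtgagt
Calr (chr8:84847070-84847098, − strand): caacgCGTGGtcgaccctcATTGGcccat
Canx (chr11:50325795-50325823, − strand): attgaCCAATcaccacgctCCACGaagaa
Creld2 (chr15:88819515-88819543, + strand): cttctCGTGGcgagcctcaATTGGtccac

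The second element was found in 6 of the 33 genes and in 3.89% of all genes with a window (3.44% of all windows). Among the 6 were 3 of the 9 Atf4 target enzymes and 1 of the 2 secreted hormones. The 2 others were Atf3 and Herpud1. The cyclic AMP element TGACGTCA, which ATF-family factors can bind, was found in 1 member, Ppp1r15a, 4 bases before its start. Its share was 1.77% of all genes with a window (1.55% of all windows). A shorter element bound by XBP1, TGACGTGG, was found in 0 of the 33 genes and in 0.603% of all genes with a window (0.563% of all windows). These matches describe the letters only and overlap no other element searched.
Asns (chr6:7693214-7693242, − strand): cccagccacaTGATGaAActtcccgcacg
Pycr1 (chr11:120643833-120643861, − strand): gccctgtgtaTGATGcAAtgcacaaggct
Chac1 (chr2:119351038-119351066, + strand): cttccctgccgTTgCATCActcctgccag
Fgf21 (chr7:45615612-45615640, − strand): agacccccccaTTgCATCAtccgtccagg
Atf3 (chr1:191183426-191183454, − strand): ccttctcgcacTTgCATCAccaagtccgc
Herpud1 (chr8:94386306-94386334, + strand): accacggcgggTTgCATCAgcccgcaccc
Ppp1r15a (chr7:45526269-45526290, − strand): gcctctccggTGACGTCAgcac

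Library totals ran from 14146048 to 15620476 counts. The labelled tissue was checked with cardiomyocyte markers, of which Myh6, the alpha myosin heavy chain, stood at 16080 to 21490 CPM (counts scaled to the size of the library, here with TMM factors). Txnip itself fell from 752 ± 35.3 to 420 ± 25.0 CPM in the knock-in hearts (SD, n = 3 each; log2 fold change −0.84 ± 0.09 SE, edgeR adjusted p = 0.00379). Mitochondrial transcripts took 28.0% of the counts in wild-type replicate 3 and 22.9 to 24.3% in the other hearts. Among cell type markers, Myl2 of cardiomyocytes and 5 of 6 red-cell genes were called higher. Lyz2 of macrophages and Acta2 of smooth muscle were called lower. Of the 7 cardiomyocyte markers, 6 had positive and 1 negative log2 fold changes, Myh6 standing at 0.027, and Myl2 alone was called. Of the 7 smooth muscle and pericyte markers, 3 had positive and 4 negative log2 fold changes, and Acta2 alone had groups that did not overlap. The 6 red-cell markers summed to 464 to 636 CPM in wild-type and 1449 to 1919 CPM in knock-in hearts, and the 9 macrophage markers to 334 to 386 against 253 to 272 CPM. Markers of B and plasma cells, which are rich in reticulum chaperones, summed to 8.72 to 12.8 CPM in wild-type and 10.4 to 13.8 CPM in knock-in hearts, with 3 of 8 passing the count filter and at most 1 count of Ms4a1 per library. What these cell types add to the genes below was not tested, and in whole hearts fewer cells of a type and less RNA per cell cannot be told apart.

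With an adjusted p under 0.05 as the threshold, 0 of the 33 genes with enough counts to be tested were called, while 0.297% of all 12777 tested genes were. Their adjusted p ran from 0.299 to 0.998 in edgeR's quasi-likelihood test, and DESeq2 and limma-voom also called 0. At an unadjusted p under 0.05 there were 3 members, Eif2ak4 and Sdf2l1 with negative and Atf3 with positive log2 fold changes, a share of 9.09% beside 9.97% of all tested genes. The 3 values of one genotype lay wholly outside those of the other for 3 members, Eif2ak4, Ddit3 and Shmt2, again 9.09%, beside 16.1% of all tested genes. In 2 of these the knock-in hearts were higher (8.12% of all tested genes) and in 1 lower (7.99%). Both shares were near or below the background. The median log2 fold change (knock-in over wild-type) was 0.027 over the members and −0.0068 over all tested genes.

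The precision of this result differed between genes. For 26 of the 33 members the 95% interval of the fold change lay within 2-fold either way, a share of 78.8% beside 86.0% of all tested genes. For 20 members it lay within 1.5-fold, a share of 60.6% beside 59.0% of all tested genes. The 7 members not within 2-fold were Atf3, Cebpb, Asns, Phgdh, Mthfd2, Gdf15 and Sdf2l1, for which a 2-fold difference in at least one direction was not outside the interval. The plot of fold changes shows each estimate with its interval.

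**Figure D1:**
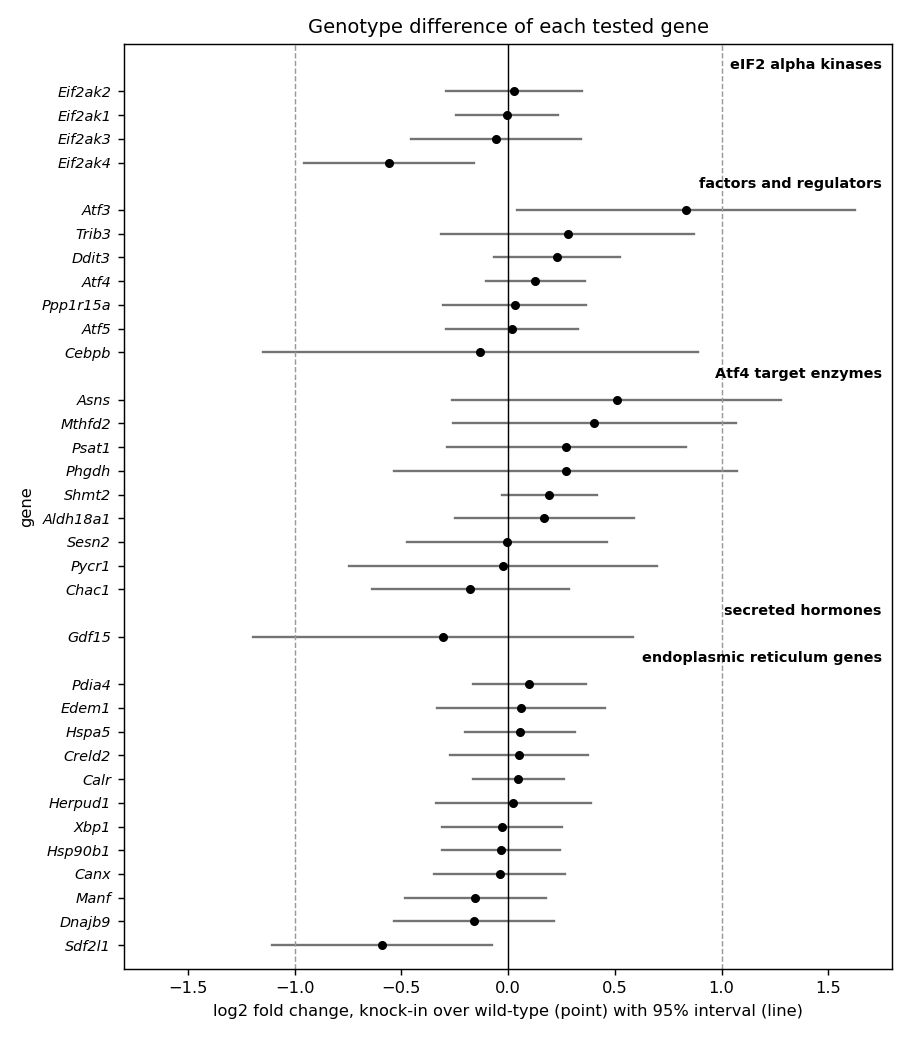
The horizontal axis gives the log2 fold change of knock-in over wild-type hearts (3 each) for the 33 tested genes, points being edgeR estimates and lines their 95% intervals; dashed lines mark 2-fold. Intervals of 11 of the 12 reticulum genes lie inside the dashed lines, and that of Atf3 runs from 0.04 to 1.62.

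The 4 kinases that phosphorylate eIF2 alpha were all expressed, and 3 of them had almost the same level in both genotypes. Eif2ak1, the haem-regulated kinase HRI that also relays mitochondrial stress, stood at 35.7, 34.5 and 37.0 CPM in wild-type and 38.4, 36.0 and 32.5 CPM in knock-in hearts. The ranges overlapped, with a log2 fold change of −0.0038 ± 0.11 SE (interval −0.24 to 0.24, edgeR adjusted p = 0.997). Other transcripts, mainly Aimp2 on the opposite strand, hold 13.4% of its 31-base words, so a share of its reads is uncertain. Eif2ak2, the kinase PKR that senses double-stranded RNA, lay between 8.59 and 10.5 CPM in all 6 hearts and had a log2 fold change of 0.027 ± 0.15. Eif2ak3, the reticulum sensor PERK, lay between 6.03 and 8.04 CPM and had −0.056 ± 0.18.

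Eif2ak4 (ENSMUSG00000005102, chromosome 2, 118388618 to 118475234, GRCm38) encodes GCN2, the kinase that senses uncharged transfer RNA during amino acid shortage. It stood at 6.75, 5.47 and 6.92 CPM in wild-type hearts and at 4.49, 4.35 and 4.16 CPM in knock-in hearts. All 3 knock-in values were below all 3 wild-type values, and they were tightly grouped. The means were 6.38 ± 0.792 and 4.33 ± 0.166 CPM (SD, n = 3 each), and the log2 fold change was −0.56 ± 0.18 SE with an interval from −0.95 to −0.16. The unadjusted p was 0.0102 and the edgeR adjusted p over all genes 0.299, so the gene did not pass. Permuting the genotypes over the 6 values (exact, two-sided) gave p = 0.1, the smallest that 3 against 3 allows. Leaving out single hearts gave log2 fold changes from −0.66 to −0.50. None of its words occur in other transcripts, and no other annotated exon overlaps it.

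Per kilobase of exon, averaged over the 6 hearts, the kinases ranked Eif2ak1 at 6.29 ± 0.359, Eif2ak2 at 1.95 ± 0.15, Eif2ak3 at 1.16 ± 0.151 and Eif2ak4 at 0.718 ± 0.165 CPM (SD, n = 6). Each step of this order was wider than the sum of the neighbouring SDs. Gcn1, the ribosome-bound activator of GCN2, had a log2 fold change of −0.26 ± 0.12 (edgeR adjusted p = 0.509), and its groups overlapped.

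Atf4, the central factor of the response, stood at 58.8, 68.8 and 63.7 CPM in wild-type and 74.4, 65.5 and 68.9 CPM in knock-in hearts. The ranges overlapped, with a log2 fold change of 0.13 ± 0.10 SE (interval −0.10 to 0.36, edgeR adjusted p = 0.761). ATF4 is controlled mainly at translation, which a transcript count does not read. Atf5, a related factor of the mitochondrial stress response, lay between 31.8 and 45.2 CPM with a log2 fold change of 0.017 ± 0.14. Ppp1r15a, the GADD34 subunit that returns the phosphatase to eIF2 alpha, lay between 20.2 and 28.3 CPM with 0.031 ± 0.15. For these 3 genes the intervals stayed within 1.5-fold.

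Ddit3, the factor CHOP that ATF4 induces, stood at 9.95, 11.3 and 10.5 CPM in wild-type and 11.6, 12.3 and 13.2 CPM in knock-in hearts. All knock-in values were above all wild-type values by a small margin. The log2 fold change was 0.23 ± 0.13 (edgeR adjusted p = 0.636, exact permutation p = 0.1). Exons of other annotated genes overlap 10.9% of Ddit3. Other transcripts, mainly of a second entry with the same name, hold 8.31% of its words, so a share of its reads is uncertain. Trib3, the pseudokinase that CHOP and ATF4 induce, stood at 3.00, 3.88 and 2.35 CPM against 4.75, 2.77 and 3.68 CPM, with 0.28 ± 0.27. The Trib3 ranges overlapped, and knock-in replicate 1 was the highest heart.

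Atf3, a factor that both the stress response and early-response signalling induce, had the largest log2 fold change among the members, and 1 heart carried it. The wild-type hearts stood at 4.70, 3.81 and 4.64 CPM, and the knock-in hearts at 5.92, 12.8 and 4.63 CPM. Knock-in replicate 2 was high and the other 2 knock-in hearts were near the wild-type values. Its log2 fold change of 0.83 ± 0.35 SE (edgeR adjusted p = 0.474) became 0.28 (adjusted p = 0.588) without knock-in replicate 2. The gene was called by edgeR only when no filter on low counts was applied (adjusted p = 0.0110). The same heart had the highest summed level of the 11 immediate early genes, at 491 CPM beside 279 and 278 CPM in the other knock-in hearts. In that list Fosb stood at 15.7 CPM and Nr4a1 at 49.9 CPM in knock-in replicate 2, against 0.651 and 0.341 CPM for Fosb and 9.95 and 10.2 CPM for Nr4a1 in the other knock-in hearts. Wild-type replicates 1 and 2 also summed high for these genes, at 434 and 375 CPM, with Atf3 at 4.70 and 3.81 CPM there. The part of early-response signalling in the Atf3 value was not tested.

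Cebpb, a factor that dimerises with ATF4, varied more within each genotype than between them. It stood at 35.5, 37.3 and 14.2 CPM in wild-type and 32.2, 16.6 and 30.7 CPM in knock-in hearts. One heart of each genotype, wild-type replicate 3 and knock-in replicate 2, was low, and the log2 fold change of −0.13 ± 0.42 had an interval from −1.15 to 0.89. Tmem189 on the opposite strand shares 19.2% of its words. The SD of Cebpb within a genotype was 0.668 on the log2 scale, against a median of 0.218 over the members and 0.195 over all tested genes.

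**Figure D2:**
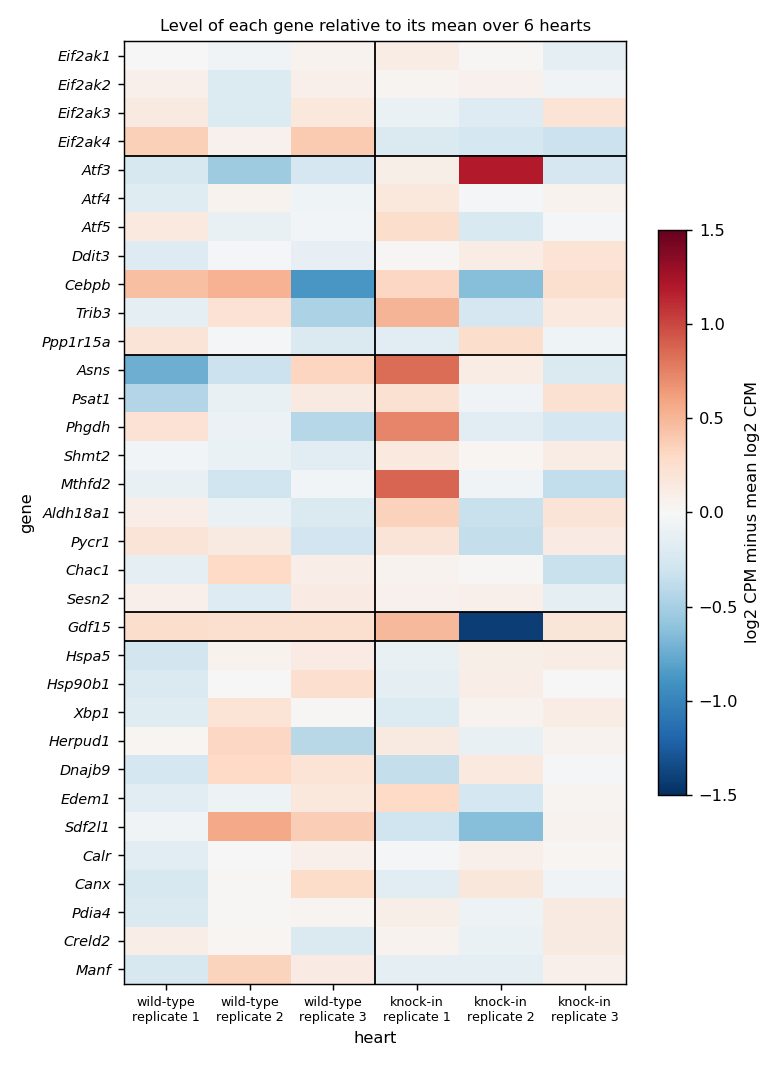
Each cell of the map gives the log2 CPM of a tested gene in 1 heart minus its mean over the 6 hearts (red higher, blue lower); horizontal lines separate kinases, factors, Atf4 target enzymes, the hormone Gdf15 and reticulum genes, and the vertical line separates the genotypes. Red cells of the Atf4 target enzymes lie mostly in knock-in replicate 1, which was the highest heart for 7 of the 9, while knock-in replicate 2 was low for Gdf15 and high for Atf3.

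The 9 enzymes and effectors downstream of ATF4 had a median log2 fold change of 0.19, with 6 positive, 3 negative and 0 called, and 1 heart was the highest for most of them. Knock-in replicate 1 was the highest heart for 7 of the 9 (Asns, Psat1, Phgdh, Shmt2, Mthfd2, Aldh18a1 and Pycr1). The mean log2 level of the list was 0.39 above its 6-heart mean in knock-in replicate 1. In the other 5 hearts it lay between −0.099 and −0.050. By this measure knock-in replicates 2 and 3, at −0.079 and −0.075, were within the range of the wild-type hearts. By summed CPM they were not. The 9 genes summed to 70.35, 68.29 and 67.89 CPM in wild-type and 88.81, 71.42 and 75.05 CPM in knock-in hearts. These sums did not overlap, and Shmt2 was the largest part of each. Of all 18 factors and targets 17 were tested, 12 were positive and the median was 0.17. Without knock-in replicate 1 the median was 0.034, with 9 positive and 8 negative. Among the 7 factors and regulators alone, 6 were positive and 1 negative. The mean log2 level of those 7 was 0.0049, 0.014 and −0.29 in wild-type and 0.17, 0.060 and 0.043 in knock-in hearts. These levels did not overlap between the genotypes, and wild-type replicate 3 was the lowest heart.

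Mthfd2, a mitochondrial folate enzyme that is among the most responsive ATF4 targets in muscle, stood at 4.84, 4.22 and 5.05 CPM in wild-type and 9.63, 5.01 and 4.02 CPM in knock-in hearts. Only knock-in replicate 1 was high, and the log2 fold change of 0.40 ± 0.30 (edgeR adjusted p = 0.731) was −0.049 without it. Asns, asparagine synthetase, stood at 1.64, 2.22 and 3.53 CPM against 5.07, 3.03 and 2.39 CPM, with 0.51 ± 0.35 (edgeR adjusted p = 0.700) and 0.15 without knock-in replicate 1. The Asns ranges overlapped, with wild-type replicate 3 above 2 of the knock-in hearts. Phgdh, the first enzyme of serine synthesis, stood at 1.57, 1.25 and 0.969 CPM against 2.28, 1.19 and 1.09 CPM, and its log2 fold change of 0.27 ± 0.37 was −0.14 without knock-in replicate 1. Of the words of Phgdh, 59.0% occur in the copy Gm7901, so its level is uncertain.

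Shmt2, the mitochondrial serine hydroxymethyltransferase, was the most abundant enzyme of the list and the one with the smallest spread. It stood at 41.9, 40.2 and 38.6 CPM in wild-type and 47.8, 43.8 and 46.3 CPM in knock-in hearts. All 3 knock-in values were above all wild-type values, by a log2 fold change of 0.19 ± 0.10 (interval −0.028 to 0.41, edgeR adjusted p = 0.577; exact permutation p = 0.1). Psat1, the next enzyme of serine synthesis, had 0.27 ± 0.25, and the proline enzymes Aldh18a1 and Pycr1 had 0.17 ± 0.19 and −0.025 ± 0.33. Chac1, a glutathione-degrading enzyme induced by ATF4 and CHOP, lay between 3.41 and 5.33 CPM with −0.18 ± 0.21. Sesn2, a stress-induced regulator of mTORC1, lay between 2.77 and 3.46 CPM with −0.0040 ± 0.21.

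The 2 secreted hormones of the response were low in these hearts. Gdf15 stood at 2.32, 2.29 and 2.28 CPM in wild-type and 2.73, 0.659 and 2.18 CPM in knock-in hearts. The wild-type values were nearly equal, and knock-in replicate 2, with 10 counts against 32 to 42 in the other 5 hearts, was low. The log2 fold change was −0.30 ± 0.40 (interval −1.19 to 0.58, edgeR adjusted p = 0.880) and 0.11 without that heart. Fgf21 had 0, 0 and 4 counts in wild-type and 2, 0 and 1 counts in knock-in hearts and was not tested. A count of 0 allows up to 3 counts, or 0.195 to 0.208 CPM, per library, which covers counting error only.

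**Figure D3:**
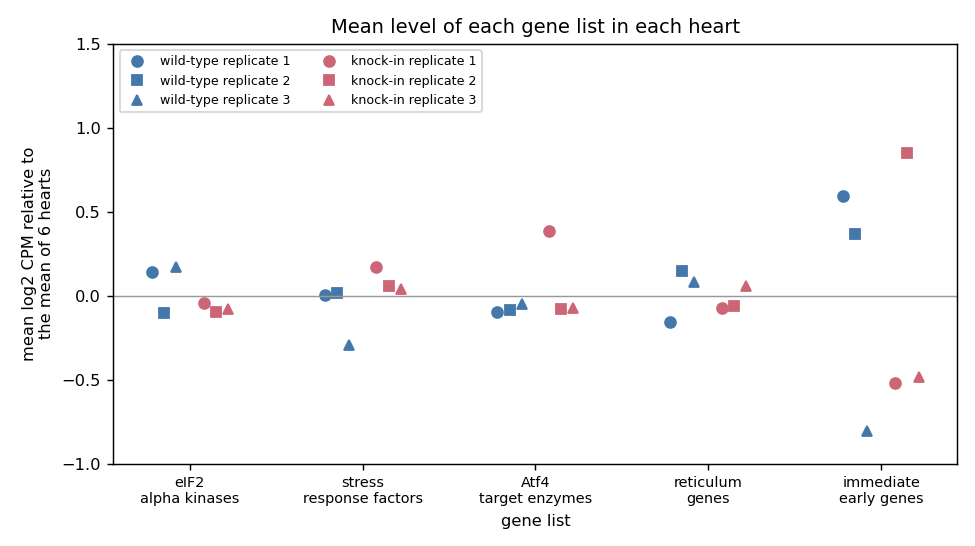
The vertical axis gives the mean log2 CPM of the tested genes of a list in each heart relative to the mean of the 6 hearts; each point is 1 heart, blue for wild-type and red for knock-in. The Atf4 target enzymes stand apart in knock-in replicate 1 alone (0.39), and the immediate early genes split both genotypes, with knock-in replicate 2 at 0.85 and wild-type replicate 3 at −0.80. The stress response factors lie from −0.29 to 0.014 in wild-type and from 0.043 to 0.17 in knock-in hearts.

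The 12 reticulum genes included the most abundant members, Hspa5, Hsp90b1, Herpud1, Calr and Canx. Of the 12, 6 had positive and 6 negative log2 fold changes with a median of −0.0011, and 0 were called. For 11 the interval lay within 1.5-fold (91.7% beside 59.0% of all tested genes). The summed level of the 12 was 1682, 2039 and 2023 CPM in wild-type and 1822, 1990 and 1983 CPM in knock-in hearts. The lowest heart of the 6 was thus wild-type replicate 1, which was the lowest for 6 of the 12 genes.

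Hspa5, the BiP chaperone that also holds the sensors inactive, stood at 516, 647 and 676 CPM in wild-type and 577, 662 and 673 CPM in knock-in hearts. The ranges overlapped almost fully, and the log2 fold change was 0.056 ± 0.12 (interval −0.20 to 0.31, edgeR adjusted p = 0.934). Hsp90b1, the reticulum HSP90 called GRP94, lay between 288 and 399 CPM with −0.035 ± 0.13. Exons of other genes overlap 15.7% of Hsp90b1. The lectin chaperones Calr and Canx had 0.048 ± 0.10 and −0.040 ± 0.14, and Calr, between 242 and 286 CPM, had the narrowest interval of all members, from −0.16 to 0.26. Creld2, a secreted reticulum stress protein, had 0.052 ± 0.15. These 5 genes, whose promoters carry the element printed above, had log2 fold changes between −0.040 and 0.056.

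Xbp1, whose mRNA IRE1 splices, lay between 50.9 and 67.2 CPM with a log2 fold change of −0.027 ± 0.13. A gene count adds the spliced and unspliced forms and does not tell them apart. Herpud1, part of the degradation machinery at the reticulum membrane, stood at 306, 373 and 225 CPM in wild-type and 331, 278 and 310 CPM in knock-in hearts, with 0.025 ± 0.16. Its lowest and highest values both came from wild-type hearts. Edem1, a lectin-like degradation factor and XBP1 target, had 0.060 ± 0.18. Dnajb9, a BiP co-chaperone (ERdj4), had −0.16 ± 0.17. Manf, a secreted factor released under reticulum stress, had −0.15 ± 0.15, and Pdia4, a protein disulphide isomerase, 0.10 ± 0.12.

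Sdf2l1 (ENSMUSG00000022769, chromosome 16, 17130138 to 17132383), a stress-inducible partner of BiP and its co-chaperones, was the 1 reticulum gene away from 0. It stood at 5.11, 7.90 and 6.85 CPM in wild-type and 4.29, 3.36 and 5.52 CPM in knock-in hearts. The ranges overlapped, since knock-in replicate 3 lay above wild-type replicate 1. The log2 fold change was −0.59 ± 0.23 SE (interval −1.11 to −0.076; unadjusted p = 0.0280, edgeR adjusted p = 0.425), and leaving out single hearts gave −0.79 to −0.42. Its paralog Sdf2 had 0.19 ± 0.10 (edgeR adjusted p = 0.589).

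**Figure D4:**
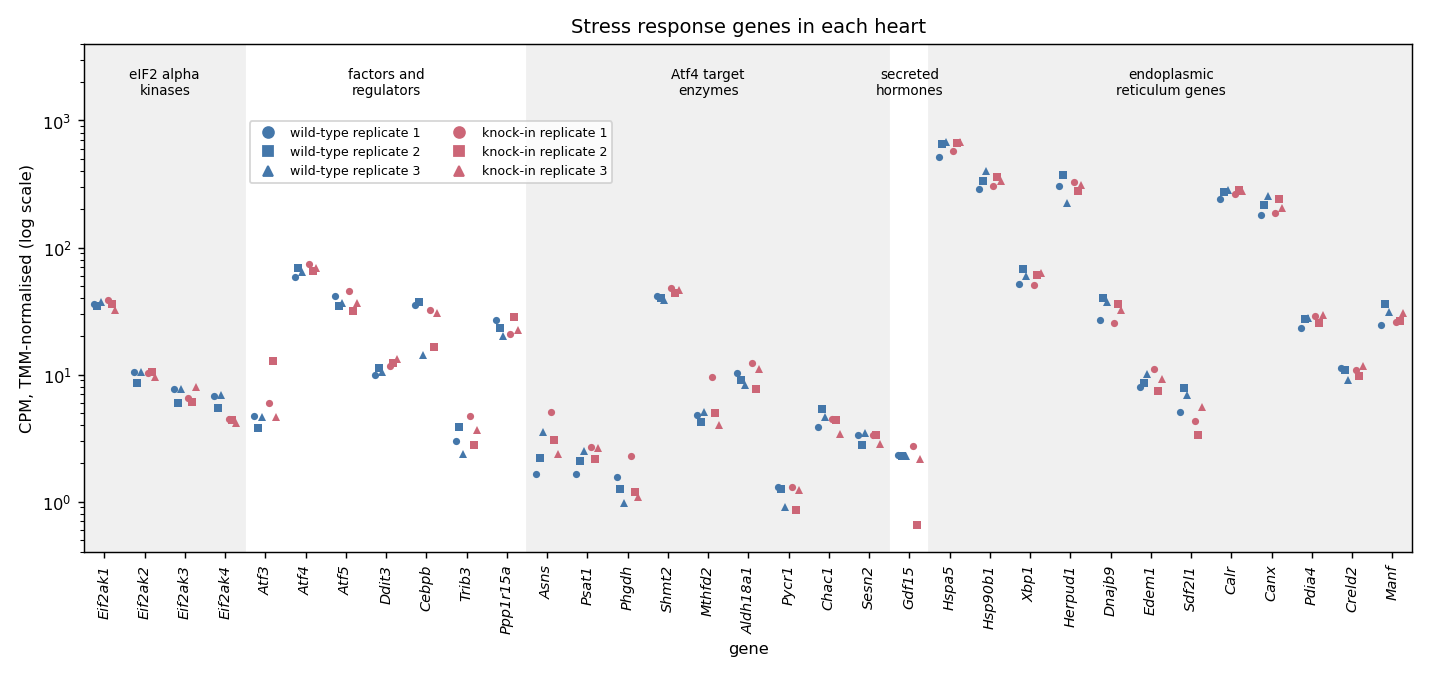
The vertical axis, on a log scale, gives the TMM-normalised CPM of the 33 tested genes in each of the 6 hearts; blue symbols are wild-type and red symbols knock-in hearts, with a symbol shape per replicate. Hspa5 lies highest, between 516 and 676 CPM, and the red square of Atf3 at 12.8 CPM and that of Gdf15 at 0.659 CPM stand apart from the other 5 hearts.

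Per kilobase of exon the members spanned 0.289 ± 0.0517 CPM for Pycr1 to 148 ± 15.3 CPM for Hspa5 (SD over 6 hearts). Hspa5 and Herpud1, at 130 ± 21.4 CPM, did not differ beyond their spread. Calr at 94.1 ± 5.53 and Hsp90b1 at 83.5 ± 9.84 CPM followed. Their ranges over the hearts overlapped, though Calr was the higher within each heart. The gap was smallest in wild-type replicate 3, at 99.2 against 99.1 CPM. Canx at 45.6 ± 6.27 CPM came next. Among the response factors Atf4 was highest at 28.3 ± 2.26 CPM. It was followed by Atf5 at 18.9 ± 2.41 and Cebpb at 18.4 ± 6.56 CPM, whose values did not differ beyond their spread.

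Beyond the members, 131 other genes of these pathways were examined in 7 lists, Txnip being left aside. Of these, 122 were tested and 0 were called, 5 had an unadjusted p under 0.05 (4.10% beside 9.97% of all tested genes), and the median log2 fold change was −0.0053. For 116 of the 122 the interval lay within 2-fold (95.1% beside 86.0% of all tested genes). The 3 values of one genotype lay wholly outside those of the other for 10 of the 122. This was a smaller share than the 16.1% of all tested genes (2059 of 12777), so the separations named below were not more frequent than the background.

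Among 18 subunits and regulators of eIF2, its exchange factor eIF2B and its phosphatase, 9 were positive and 9 negative, between −0.26 for Gcn1 and 0.17. Eif2b4, an eIF2B subunit, had −0.20 ± 0.12. Of 24 tested amino acid transporters, synthetic enzymes and transfer RNA synthetases under ATF4, 9 were positive and 15 negative. Slc3a2, the heavy chain shared by several amino acid transporters, stood at 32.6, 30.5 and 26.2 CPM in wild-type and 46.5, 31.9 and 40.6 CPM in knock-in hearts, with overlapping ranges and a log2 fold change of 0.42 ± 0.15 (edgeR adjusted p = 0.365). In Slc1a4, a neutral amino acid transporter, all knock-in values lay below the wild-type values, with −0.64 ± 0.27 (edgeR adjusted p = 0.452).

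In the list of other stress-induced targets, Bbc3, the pro-apoptotic PUMA, stood at 1.91, 2.08 and 2.98 CPM in wild-type and 1.76, 0.725 and 1.16 CPM in knock-in hearts. Its knock-in values were all below the wild-type values, with a log2 fold change of −0.93 ± 0.35 (edgeR adjusted p = 0.388). Of 16 tested sensors and factors of the unfolded protein response, 10 were positive and 6 negative. Those with the smallest p were Bak1, a cell death factor, at 0.35 ± 0.17, and Mbtps2, a protease that releases ATF6, at −0.39 ± 0.20. Exons of other genes overlap 25.5% of Bak1 and 28.4% of Mbtps2, so a share of their reads is uncertain.

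Of 21 tested folding and oxidation genes of the reticulum 12 were positive and 9 negative, and the prolyl isomerase Ppib had 0.22 ± 0.11. Other transcripts hold 37.3% of the words of Ppib, so a share of its reads is uncertain. Among 18 tested genes of reticulum-associated degradation, Ufd1, which helps to extract proteins from the membrane, had 0.27 ± 0.11 with groups that did not overlap (edgeR adjusted p = 0.45). Ube2j2, a ubiquitin-conjugating enzyme there, had −0.24 ± 0.14. Of 12 tested genes of the mitochondrial unfolded protein response 3 were positive and 9 negative, with a median of −0.082. Its chaperonin gene Hspe1 stood at 151, 157 and 149 CPM in wild-type and 143, 138 and 117 CPM in knock-in hearts, which did not overlap, with −0.20 ± 0.10 (edgeR adjusted p = 0.576). Trap1, a mitochondrial HSP90, had 0.18 ± 0.10.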

How the data were processed

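Per the labels' protocols, heart RNA came from the RNeasy Mini Kit, and NEBNext Ultra II was the library chemistry. The deposited values are raw whole-number read counts per Ensembl gene. Per the submitters' processing notes, which give no roles, the tools were DESeq2, featureCounts (Subread 1.5.2) and STAR and the build GRCm38.p6. The sources used here do not give the annotation release, the strand setting or how multiply matching reads were treated, so genes that overlap others or have copies can gain or lose reads.

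Columns were matched to samples by their descriptions. Of 49315 genes 12777 passed filterByExpr and were tested with edgeR 4.0.16 (R 4.3.3): TMM scaling, then robust glmQLFit and glmQLFTest for genotype across the 6 libraries. A gene was called at an adjusted p (Benjamini-Hochberg, all tested genes) under 0.05. SE are Wald errors of the genotype term, and 95% intervals use the total degrees of freedom (median 10.9). Relative levels use log2(CPM + 0.1). Counts of replicate pairs differed beyond sampling noise (6.70 to 25.1 chi-square units per degree of freedom). Replicate numbers follow accession order. Shared words are 31-base stretches of a gene that transcripts of other genes hold too.

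In a simulation of this comparison (12625 genes tested), the share called was 19.4% for log2 changes of 0.5, 80.0% for 1 and 100% for 2, and 12 of 12428 unchanged genes were called. The simulated counts were drawn independently for each gene, so shifts shared by many genes of a heart were not modelled. Changes were placed in randomly picked genes, so these shares are not those of the members. The members and lists were chosen with earlier results of these data known. The naming rule takes all members, and in each wider list the called genes or otherwise the 2 with the smallest p. Fosb, Nr4a1, Bbc3, Ddit4 and Nupr1 fall outside it and were chosen after their values were seen. Alternatives were other scalings and filters, DESeq2 1.42.0, limma-voom (limma 3.58.1), each library left out, and, chosen after seeing the data, 4 libraries.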

Additional observations from a re-analysis of the deposited data

How the results depend on the processing

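No member was called under any alternative run except Atf3 without a filter on low counts, where 1 of the 34 members and 317 genes in all were called. Over all genes DESeq2 called 131, limma-voom 18, an adjusted p under 0.1 75, and dropping both wild-type replicate 3 and knock-in replicate 2 (4 libraries, chosen after seeing the data) 392. With 1 library dropped at a time the number lay between 5, when wild-type replicate 2 was out, and 174, when knock-in replicate 2 was. The cause was not tested. The medians of the kinases, the response factors and targets, and the reticulum genes moved by less than the spread between replicates in each alternative. When 1 library was left out they ranged from −0.11 to 0.015, 0.034 to 0.24 and −0.086 to 0.048. For the factors and targets that spread, 0.156, itself includes the high knock-in replicate 1. Their median without this heart was 0.034. Of the 33 tested members, 14 kept their sign throughout, Eif2ak4, Sdf2l1, Atf3, Atf4, Ddit3 and Shmt2 among them. Signs turned for RLE scaling in Eif2ak1 (0.0012) and Sesn2 (7.9e-04), as with DESeq2 (0.0013 and 7.4e-04). With library-size scaling they turned in Atf5 (−0.024), Eif2ak2 (−0.013), Herpud1 (−0.019) and Ppp1r15a (−0.013), and in the 4 libraries in Canx (0.0025), Eif2ak1 (0.021), Eif2ak3 (0.094), Gdf15 (0.10), Herpud1 (−0.076), Hsp90b1 (0.046), Ppp1r15a (−0.20) and Sesn2 (0.023). Leaving out 1 library turned the sign of 19 members, over ranges from −0.12 to 0.14 in Atf5, −0.016 to 0.10 in Calr, −0.16 to 0.096 in Canx, −0.46 to 0.13 in Cebpb, −0.038 to 0.12 in Creld2, −0.079 to 0.20 in Edem1, −0.051 to 0.060 in Eif2ak1, −0.063 to 0.076 in Eif2ak2, −0.18 to 0.035 in Eif2ak3 and −0.69 to 0.11 in Gdf15. The others ran from −0.15 to 0.21 in Herpud1, −0.14 to 0.096 in Hsp90b1, −0.054 to 0.13 in Hspa5, −0.049 to 0.64 in Mthfd2, −0.14 to 0.46 in Phgdh, −0.098 to 0.14 in Ppp1r15a, −0.17 to 0.15 in Pycr1, −0.095 to 0.067 in Sesn2 and −0.12 to 0.073 in Xbp1. No paired analysis was possible because the replicate numbers only follow accession order. Among tested members mean counts were lowest for Pycr1, with 13 to 20 per library, and Phgdh, with 14 to 35, and the interval of Phgdh reached past 2-fold.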

Other observations

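In the list of other stress-induced targets, 2 further genes were picked after their values were seen, and neither was called. Ddit4, an mTORC1 inhibitor that hypoxia, glucocorticoids and ATF4 induce, stood at 91.5, 81.3 and 32.5 CPM in wild-type and 150, 76.0 and 159 CPM in knock-in hearts (log2 fold change 0.91, edgeR adjusted p = 0.63). Nupr1, a stress-induced chromatin protein, stood at 2.66, 1.66 and 2.35 CPM in wild-type and 5.99, 2.11 and 4.43 CPM in knock-in hearts (0.91, edgeR adjusted p = 0.43). In both, knock-in replicates 1 and 3 were above all wild-type hearts and knock-in replicate 2 was not. For Cebpb the same heart and wild-type replicate 3 were the 2 low ones.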
